A study of Mus musculus with 2 samples.

Results

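Tmtc2, Camk1d, Gm26561 and D130009I18Rik are 4 of the 179 genes in the authors' deposited table, and were taken by name because their expression levels were very high in both libraries and their genes are long. All 4 were higher in the Musclin library, and the authors' deposited table gives folds between 2.209 and 2.567. Their spans run from 353993 to 515207 bp of the genome, yet only 0.274% to 2.08% of that span is exon. The cells were fibro/adipogenic progenitors (FAPs), mesenchymal stromal cells that live in skeletal muscle, sorted from C57BL/6 mice and cultured in DMEM with 20% fetal bovine serum and 1% penicillin-streptomycin. One group (n = 1 library) received 1 µM mouse recombinant Musclin for 72 hours, and the other (n = 1 library) received an equal amount of vehicle for 72 hours, with daily medium changes in both. The labels name neither the sex, the age nor the number of mice, and the vehicle library is headed PBS. With no replicate in either group, the spread between samples is unknown and the values below carry no test.

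Tmtc2 encodes a protein of the endoplasmic reticulum membrane with tetratricopeptide repeats. The TMTC proteins are known as O-mannosyltransferases of cadherins and protocadherins, and the human TMTC2 protein binds the calcium pump that fills the endoplasmic reticulum. Camk1d encodes a serine/threonine kinase that is activated by calcium-bound calmodulin and by the kinases Camkk1 and Camkk2, and CREB is among the known targets of such kinases. Gm26561 and D130009I18Rik are annotated as long intergenic noncoding RNAs, and no role is given for either here. Musclin is a peptide secreted by muscle that binds the natriuretic peptide clearance receptor.

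Among the 4, Gm26561 had the highest levels, with 8695 in the Musclin library and 3520 in the vehicle library. Tmtc2 had a level of 6888 in the Musclin library and 2709 in the vehicle library. The level of D130009I18Rik was 1145 in the Musclin library and 433.5 in the vehicle library. Camk1d, the lowest of the 4, had a level of 442.9 in the Musclin library and 175.7 in the vehicle library. The unit of these levels is not stated in the file. The order of the 4 was the same in both libraries, and Gm26561 was 19.6 times Camk1d in the Musclin library and 20.0 times Camk1d in the vehicle library on the scale of deposited levels. The median level of the 179 listed genes was 1.33 in the Musclin library and 0.86 in the vehicle library.

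By level in the vehicle library, Gm26561 was listed gene number 1, Tmtc2 number 3, D130009I18Rik number 4 and Camk1d number 7. The genes between them were Filip1l, a filamin A interacting protein gene, Rpl27-ps3, a processed pseudogene of a ribosomal protein, and mt-Co3, a mitochondrial subunit of cytochrome c oxidase. Just below Camk1d stood Ifit3, an interferon-induced gene, with a level of 191.9 in the Musclin library and 90.96 in the vehicle library. In the Musclin library the 4 were at places 1, 2, 4 and 6, with Filip1l and mt-Co3 between them. The levels of the 4 summed to 17171 in the Musclin library and 6838 in the vehicle library. The 4 thus held 66.4% of the level summed over the 179 genes in the Musclin library and 61.5% in the vehicle library.

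**Figure D1:**
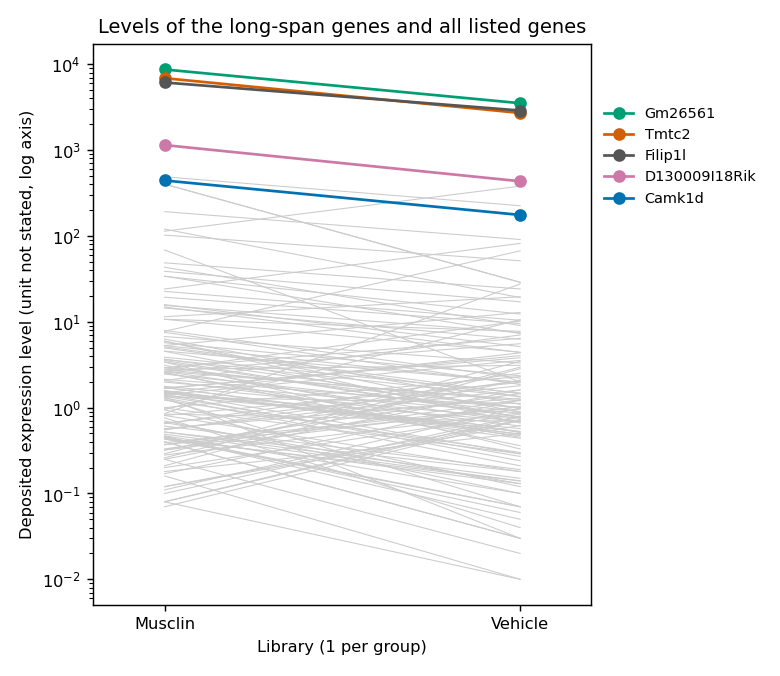
Deposited expression level (log axis) of the listed genes above 0 in both libraries, with the Musclin library left and the vehicle library right and 1 line per gene. Gm26561, Tmtc2, Filip1l and D130009I18Rik lie above all grey lines in both libraries, and Camk1d lies among the upper ones, at 442.9 in the Musclin library and 175.7 in the vehicle library.

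All listed genes are marked significant by the authors, with adjusted p up to 0.0497 in the authors' deposited table. Of the 23180 genes tested, a number calculated from p and adjusted p in the authors' deposited table, 0.500% were called higher in the Musclin library and 0.772% were called in either direction. The 4 genes were picked from those called, so their 4 calls are a description only. In the authors' deposited table the fold was 2.345 for Gm26561 (adjusted p = 2.39e-109), 2.209 for Tmtc2 (adjusted p = 7.56e-73), 2.314 for Camk1d (adjusted p = 6.51e-27) and 2.567 for D130009I18Rik (adjusted p = 2.93e-53). On the log2 scale these folds ran from 1.14 to 1.36, a range of 0.22. Each p compares 1 library with 1 other, and so says nothing of the spread within a condition.

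Folds of this size were at the low end of the genes called higher, taken over all levels. The lowest fold among the genes listed as higher was 2.006, and the median of the 116 was 4.56 in the authors' deposited table. Of these 116 genes, 12 had a fold below that of Tmtc2 and 87 had a fold above that of D130009I18Rik. Level was not matched in these counts, and the median vehicle level of all listed genes was 0.86. At vehicle levels of 51.38 or more, the other genes listed as higher were Filip1l, mt-Co3 (fold 2.179), Ifit3 (2.124) and Ifit1 (2.006). These folds were all below those of the 4. Rn7s2, next by vehicle level (28.83), had a fold of 13.494. The 4 folds were also near that of Filip1l, 2.069 in the authors' deposited table, whose level was 6134 in the Musclin library and 2890 in the vehicle library. By distance over the log2 levels of both libraries, and leaving out the 4 genes themselves, Filip1l was the nearest listed gene to Tmtc2 (0.19) and to Gm26561 (0.58), and mt-Co3 was the nearest to Camk1d (0.38) and to D130009I18Rik (1.55). Outside the 4, the next after Filip1l was mt-Co3, at 5.24 from Tmtc2 and 5.74 from Gm26561.

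The ratio of the deposited levels was larger than the deposited fold for all 4 genes. It was 2.47 for Gm26561, 2.54 for Tmtc2, 2.52 for Camk1d and 2.64 for D130009I18Rik. On the log2 scale the ratios ran from 1.30 to 1.40, a range of 0.10, so the 4 lay closer together by level than by fold. Dividing the ratio of levels by the fold gave 1.05 for Gm26561, 1.15 for Tmtc2, 1.09 for Camk1d and 1.03 for D130009I18Rik. For other listed genes with 1 annotated transcript and a level of at least 1 in both libraries, this quotient was higher in short transcripts. Its median was 1.03 for the 6 genes under 400 nt (1.02 to 1.04), and 1.00 for the 14 genes from 400 nt to under 1000 nt (0.993 to 1.05). It was 0.993 for the 11 genes of 1000 nt or more (0.990 to 1.35). The 6 short genes include the structural RNAs Rn7s1, Rn7s2, Rn7sk, Rmrp and Rpph1, and Rn7s1 and Rn7s2 have identical values. Length was therefore not separated from RNA type. Gm26561 has 1 transcript of 1413 nt in the annotation, and its quotient was above those of all 6 short genes. The other 3 have several transcripts. Among 20 other listed genes with several transcripts the quotient ran from 0.592 to 3.75, with a median of 1.01, and 5 of them were above Tmtc2, so the values of Tmtc2, Camk1d and D130009I18Rik lay inside that range.

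**Figure D2:**
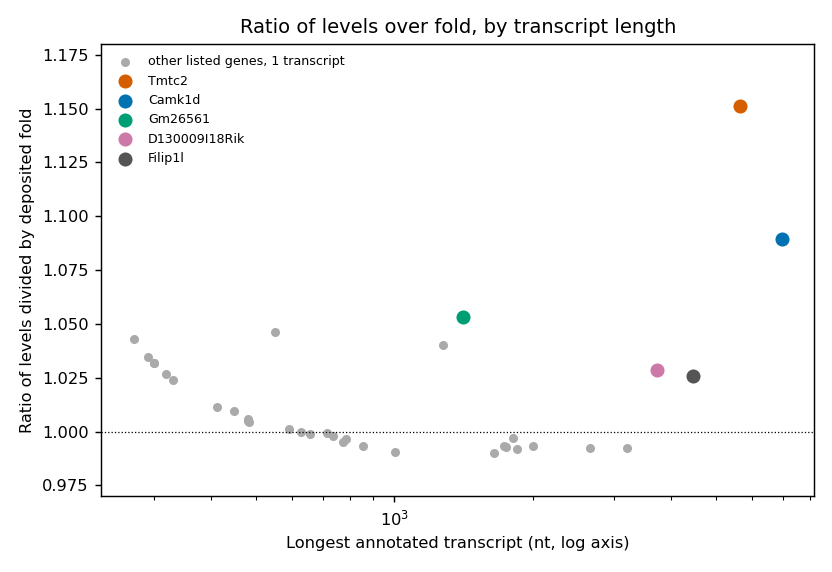
Ratio of levels (Musclin over vehicle) divided by the deposited fold, against the longest annotated transcript (log axis), for listed genes with 1 transcript and both levels at 1 or more (grey; 1 gene at 1.35 lies above the axis) and for the 4 genes and Filip1l. Grey points under 400 nt lie at 1.02 to 1.04 and most longer ones near 1, and Gm26561, which also has 1 transcript, lies at 1.05. Tmtc2 (1.15) and Camk1d (1.09) have several transcripts, and no grey point lies at their lengths.

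The genes with the highest levels did not have the smallest p-values, apart from Filip1l, whose p is printed as 0. By p in the authors' deposited table, Gm26561 was number 5 of the listed genes, Tmtc2 number 7, D130009I18Rik number 11 and Camk1d number 14. Ifit3 was number 2 and Ifit1, another interferon-induced gene, number 4, although the vehicle level of Ifit1 was only 51.4. Among all genes tested, the rank worked out from p and adjusted p was 10 for Gm26561 and 17 for Tmtc2. It was 26 for D130009I18Rik and 56 for Camk1d, so some genes with a smaller p are not in the list. With a given fold, a smaller p needs more reads. The reads behind each value were therefore calculated back from fold and p, on the assumptions that the test held no spread beyond counting and that the libraries were equally deep, neither of which is stated. The calculation gave 916 reads for Gm26561 in the vehicle library, 731 for Tmtc2, 352 for D130009I18Rik and 239 for Camk1d. It gave 1607 reads for mt-Co3 at a level of 225.0, 1874 for Ifit3 at 90.96 and 1716 for Ifit1 at 51.4.

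A level per length is reads divided by the length used for the transcript, so level and reads together imply a length. That the deposited levels are per length is an assumption, since their unit is not stated. In this calculation the scale was set by the median of 28 other listed genes with a transcript of 1000 nt or more and a level of at least 1 in both libraries, of which 21 lay within 1.5-fold of that median. The implied length was 1682 nt for Ifit3, whose transcript has 1745 nt, and 2727 nt for Ifit1, whose transcript has 2656 nt. Both are among the 28 genes that set the scale, so their closeness is partly fixed by the calculation. The 10th to 90th percentile of the 28 was 41.8% to 111% of the longest transcript. For Gm26561 it was 21.3 nt, although its annotated transcript has 1413 nt. For Tmtc2 it was 22.0 nt, although its 6 annotated transcripts have 624 to 5629 nt. D130009I18Rik had an implied length of 66.2 nt against 4 transcripts of 2116 to 3717 nt, and Camk1d had 111 nt against 4 transcripts of 376 to 6962 nt. The implied length was thus 0.391% of the longest transcript for Tmtc2, and at most 1.78%, the value of D130009I18Rik, for the other 3. Among the 51 other genes with both levels at 1 or more it was 13.6% to 841%, with a median of 77.3%.

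Read the other way, the vehicle level of Tmtc2 was 256 times the level that its calculated reads would give over its longest transcript. This factor was 66.5 for Gm26561, 62.6 for Camk1d and 56.1 for D130009I18Rik. For Filip1l it was at most 43.6, since its p is printed as 0 and its reads are a lower bound. The 4 factors were above those of the 51 other genes, of which the highest was 7.38. The same 6 genes with transcripts under 400 nt, mostly structural RNAs, also had short implied lengths, of 14.3% to 25.4% of the annotated one. RSEM, which the submitters' processing notes name, divides by an effective length that is shorter than the transcript by about the length of a fragment. The longest transcript of Tmtc2 has 5629 nt and the only one of Gm26561 has 1413 nt. Their implied lengths were 22.0 nt and 21.3 nt. The part of effective length in these values was not tested. Whether the authors' annotation held shorter transcripts of the 4 genes was not tested. Level, fold and p come from the contrast by which the genes were chosen. The 4 were also chosen for high level, which enters the factor and the implied length directly. Their place above the other genes is therefore partly fixed by the choice, and these values are a description.

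**Figure D3:**
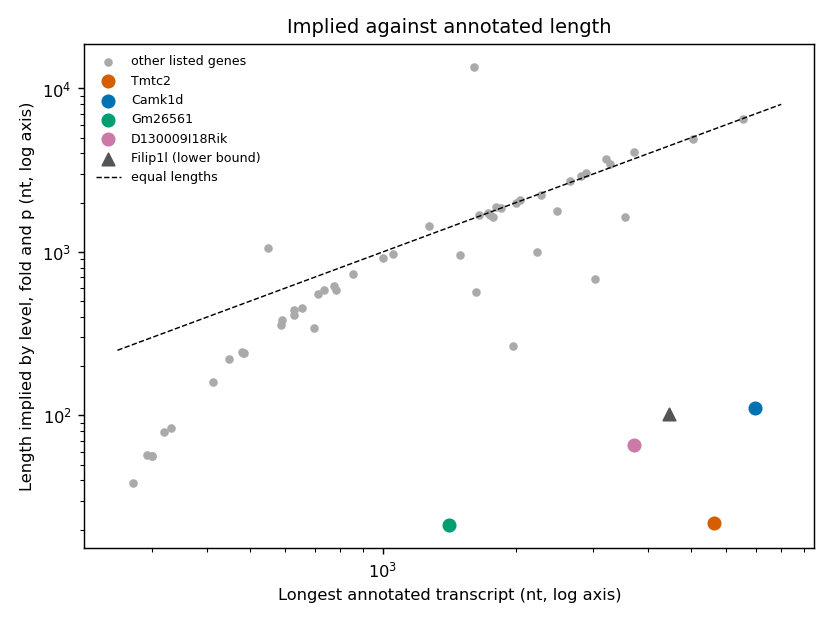
Length implied by level, fold and p against the longest annotated transcript (both in nt, log axes) for the 56 listed genes with both levels at 1 or more; the dashed line marks equal lengths. Most other genes (grey) follow the line at long transcripts and fall below it at short ones, and the 4 genes lie far under it, between 21.3 and 111 nt.

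Gm26561 lies at chr17:70878078-71393284 (GRCm38, plus strand), a span of 515207 bp. Its transcript joins 4 exons of 34, 13, 137 and 1229 bp, with transcript support level 5, the weakest grade of the annotation. The span overlaps 19 other annotated genes, 7 of them protein-coding gene IDs. On the plus strand these were Myom1, which encodes an M-band protein of the sarcomere, and Lpin2, a phosphatidate phosphatase. On the minus strand they were Myl12a and Myl12b (2 gene IDs), regulatory light chains of nonmuscle myosin, Emilin2, an extracellular matrix glycoprotein, and Smchd1, a chromatin protein of X inactivation. None of the 19 was listed. Exon 4 (chr17:71392056-71393284) lies within the span of Smchd1 and is covered over all 1229 bp by Gm38220, a locus of the opposite strand whose type is still to be established. That is 87.0% of the exonic sequence of Gm26561. Whether the libraries keep the strand is not stated, and without it reads of Gm26561 and Gm38220 cannot be told apart in exon 4. The similarity is not limited to exon 4. Transcript bases 12 to 1413 of Gm26561, from exon 1 onward, aligned with Gm38220 at 96.9% identity over 1430 aligned bases.

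The first exons of Gm26561 hold sequence that is found in many other transcripts. It is shown because so many other genes carry a similar stretch. These counts of similar genes were made only for the 4 genes and Filip1l. How common such stretches are in the other listed genes was not counted. The stretch covers transcript bases 1 to 230, that is exon 1 (chr17:70878078-70878111), exon 2 (chr17:71096871-71096883), exon 3 (chr17:71104469-71104605) and the start of exon 4, and capitals mark the 147 bases that align with transcripts of at least 1000 other genes each.
Gm26561: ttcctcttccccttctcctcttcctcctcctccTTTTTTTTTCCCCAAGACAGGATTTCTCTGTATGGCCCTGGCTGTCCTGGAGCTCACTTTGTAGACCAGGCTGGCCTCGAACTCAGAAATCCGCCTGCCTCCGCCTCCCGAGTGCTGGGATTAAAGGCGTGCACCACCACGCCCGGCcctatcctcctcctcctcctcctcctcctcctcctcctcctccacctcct
At the most shared base, 4987 other genes had a similar transcript. By its letters the marked part has the form of a reversed B1 element, a short interspersed repeat of rodents, although no repeat library was searched. It is followed by 13 copies of TCC in a row, which begin at base 185. Of the 1364 stretches of 50 bases in the transcript, 1224 (89.7%) occurred exactly in the transcript of another gene, mostly in the overlapping Gm38220. Without overlapping genes, 44 (3.23%) did.

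D130009I18Rik lies at chr14:104612791-104966783 (GRCm38, plus strand) and overlaps 1 annotated gene, the small nucleolar RNA Gm25724 on the opposite strand, in an intron. An 85 bp exon (chr14:104885220-104885304) occurs in 3 of its 4 transcripts and is shown because nearly all of it aligns with transcripts of at least 1000 other genes, at up to 2037 genes per base in the longest transcript (capitals).
D130009I18Rik: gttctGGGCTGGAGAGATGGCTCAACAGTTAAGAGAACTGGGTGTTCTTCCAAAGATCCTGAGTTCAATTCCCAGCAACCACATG
By its letters this exon has the form of a B2 element, another short interspersed repeat of rodents. The longest transcript also holds 21 copies of GT in a row. No stretch of 50 bases in its transcripts occurred exactly in another gene.

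Camk1d lies at chr2:5293457-5714515 (GRCm38, minus strand). A processed pseudogene on the opposite strand, Gm13216, is the 1 gene that overlaps it, and it touches no exon. Tmtc2 lies at chr10:105187663-105574451 (GRCm38, minus strand) and overlaps 8 annotated genes, none of them protein-coding. Of these, only Gm15663 on the opposite strand shares exon sequence with Tmtc2, over 165 bp or 2.12% of its exonic bases. No transcript of Camk1d held a stretch of 50 bases found exactly in another gene, and in the longest transcript of Tmtc2 the 116 such stretches (2.08%) were all shared with overlapping genes. Of the longest transcripts of 178 listed genes, 34 shared none, and the median share was 58.7%. Camk1d-201 holds 20 copies of AC in a row, similar to sequence in up to 1513 other genes. Transcripts of Camk1d aligned with those of its relatives Camk1 (75.0% identity over 948 aligned bases), Camk1g (73.2% over 831) and Pnck (68.7% over 788).

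**Figure D4:**
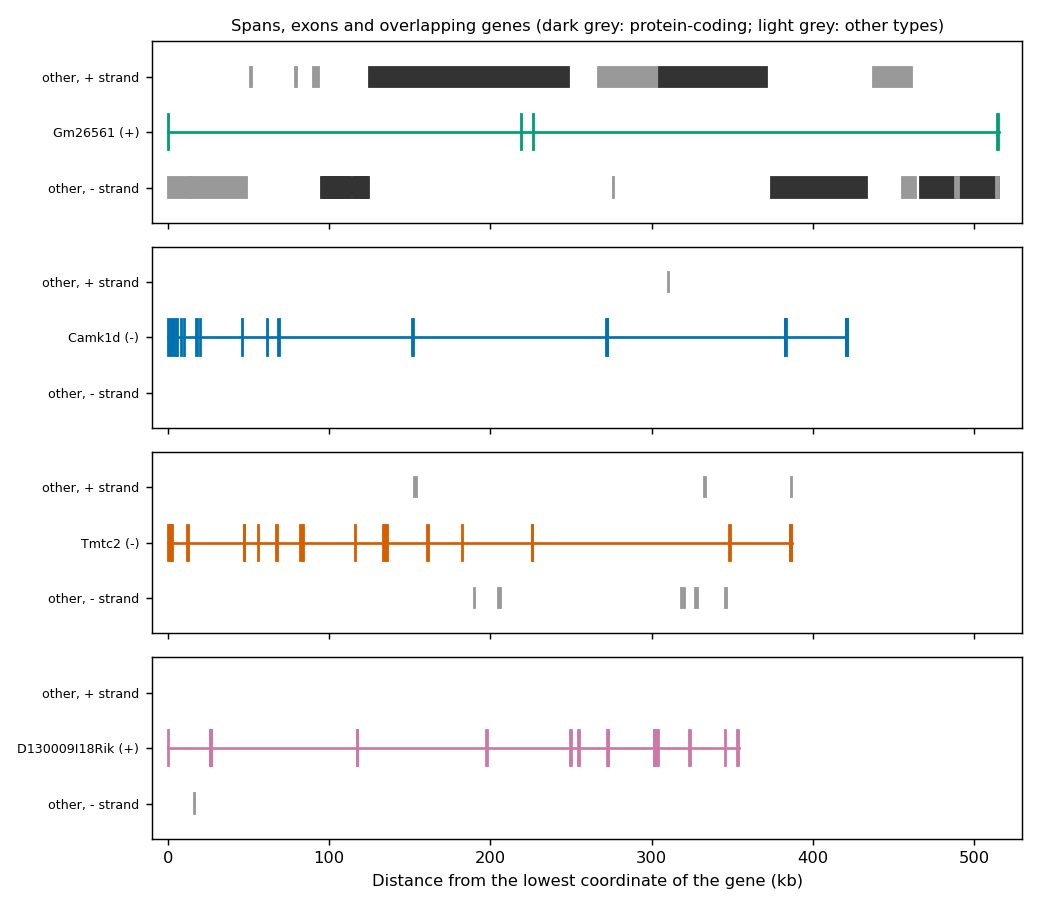
Spans (line) and exons (boxes) of the 4 genes to scale in kb from the lowest coordinate of each gene, with overlapping genes above (plus strand) and below (minus strand); boxes narrower than 0.9 kb are drawn at 0.9 kb. Protein-coding neighbours (dark grey) occur in the span of Gm26561 and in none of the other spans.

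**Figure D5:**
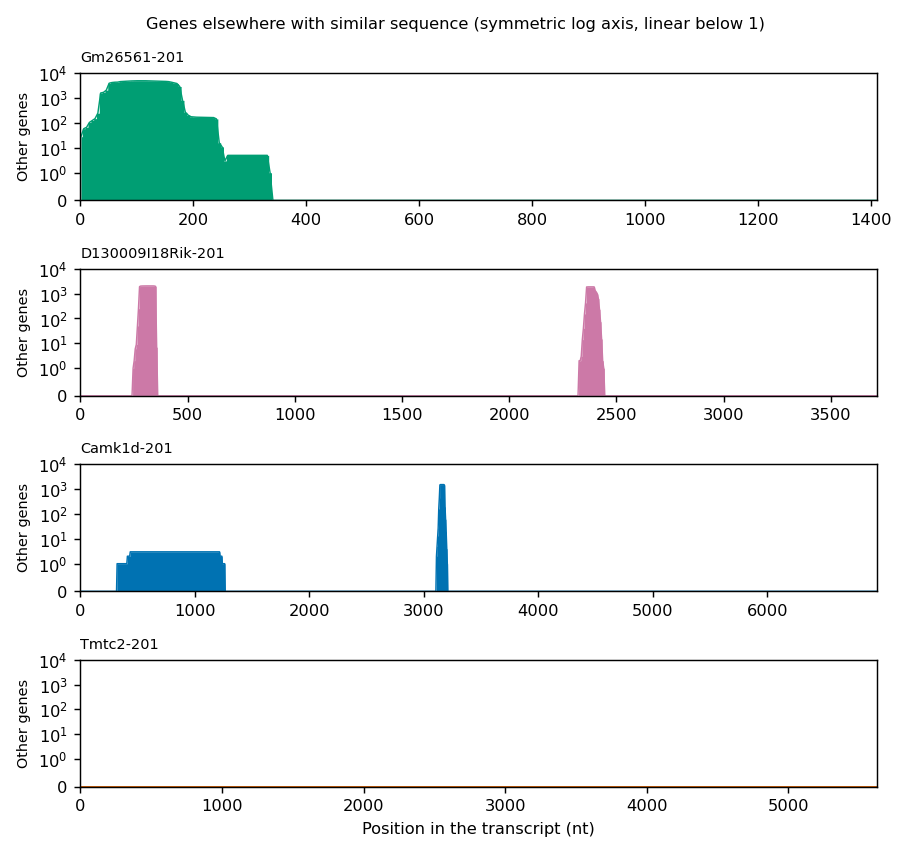
Number of other, non-overlapping genes with similar sequence (symmetric log axis) along the longest transcript of each gene (position in nt). Counts reach 4987 near the start of Gm26561, 2037 in D130009I18Rik and 1513 in Camk1d, and are 0 throughout Tmtc2.

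No match to the annotated ribosomal RNA searched was found in the exons of the 4 genes at the limits used. None of their transcripts matched any of 360 annotated transcripts of ribosomal RNA or of the ribosomal repeat loci Gm26917, Gm42418 and AY036118 at 80% identity over 50 nt, and 2 of 178 listed genes did. The longest local match in the 4 genes was 27 nt, in Camk1d. Ribosomal sequence outside these 360 transcripts was not part of the search, so a match to it would not be seen. Introns, which make up nearly all of each span, were not searched. The longest span among the listed genes was that of Agbl1, which encodes a carboxypeptidase that shortens glutamate chains on proteins. It spans 894812 bp and had a level of 7.92 in the Musclin library and was listed at 0 in the vehicle library. The median span of the listed genes was 4433 bp.

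Promoters were taken from RefSeq (GRCm38.p6), which held 4 for 3 of the genes, from 250 bases before to 50 bases after each annotated start. They are shown because the 4 genes moved in the same direction, and capitals mark CG dinucleotides.
Tmtc2 (chr10:105574430-105574729, minus strand): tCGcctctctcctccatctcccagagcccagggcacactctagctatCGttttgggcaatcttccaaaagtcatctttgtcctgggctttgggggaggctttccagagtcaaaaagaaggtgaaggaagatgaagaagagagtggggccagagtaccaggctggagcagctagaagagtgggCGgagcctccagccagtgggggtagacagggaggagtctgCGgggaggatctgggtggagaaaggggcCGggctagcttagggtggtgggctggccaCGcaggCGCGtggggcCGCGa
Camk1d (chr2:5714713-5715012, minus strand): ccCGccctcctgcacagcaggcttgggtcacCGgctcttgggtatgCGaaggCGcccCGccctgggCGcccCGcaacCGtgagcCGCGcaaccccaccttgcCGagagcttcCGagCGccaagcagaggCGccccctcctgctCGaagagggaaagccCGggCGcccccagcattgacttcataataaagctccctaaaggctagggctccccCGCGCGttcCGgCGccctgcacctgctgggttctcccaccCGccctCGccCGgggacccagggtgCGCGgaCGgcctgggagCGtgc
D130009I18Rik (chr14:104638894-104639193, plus strand): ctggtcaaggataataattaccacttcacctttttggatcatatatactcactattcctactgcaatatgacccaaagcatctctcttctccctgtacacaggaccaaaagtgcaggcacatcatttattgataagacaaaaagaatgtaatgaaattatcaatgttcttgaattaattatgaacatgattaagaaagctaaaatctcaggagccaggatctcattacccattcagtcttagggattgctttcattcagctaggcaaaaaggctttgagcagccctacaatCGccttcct
The promoters differ in composition. Tmtc2 has 10 CG dinucleotides and 60.3% G and C, the Camk1d start shown has 29 and 71.3%, and D130009I18Rik has 1 and 37.7%, while the medians over 32851 RefSeq promoters are 7 and 52.7%. The second Camk1d promoter (chr2:5675997-5676296) has 5 and 48.7%. The Camk1d window shown, from the RefSeq start, lies wholly upstream of the gene as placed above, which starts at chr2:5714515. The D130009I18Rik window holds the starts of D130009I18Rik-202 (chr14:104639144), D130009I18Rik-203 and D130009I18Rik-204 (both chr14:104639124), which lie inside the gene. The gene and its longest transcript, D130009I18Rik-201, start at chr14:104612791. On both strands, 3 motifs had no match in any of the 4 promoters. These were TATAAA, to which the TATA-binding protein binds (in 13.6% of all promoters), TGACGTCA (the site bound by CREB, 1.79%) and the core of the interferon-stimulated response element (3.44%). CCAAT, which 37.4% of all promoters hold, had 1 match, in the second Camk1d promoter. That match was on the strand opposite the gene and lay 42 bases after the annotated start. These letters describe the windows only.

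Relatives and partners of the 2 protein-coding genes were looked up in the list, which holds 0.772% of all genes tested. Tmtc2 and Camk1d are themselves in these lists and were chosen, so the counts are read as no result about the lists. Of 11 genes of the TMTC family and protein O-mannosylation, Tmtc2 was listed as higher, 0 were lower and 10, Tmtc1, Tmtc3 and Tmtc4 among them, were not listed. None of 11 genes of calcium pumps and stores was listed. Of 76 cadherin and protocadherin genes, 0 were higher and 1 was lower, Pcdhb7, a cell adhesion molecule, with a level of 0.57 in the Musclin library and 1.29 in the vehicle library; the authors' deposited table gives it a fold of 0.45 and an adjusted p of 0.0119. Of 15 calcium/calmodulin kinase genes, Camk1d was higher, 0 were lower and 14 were not listed, and of 19 effectors of these kinases 0 were listed. Among 19 loci often seen at very high level in nuclear or ribosomal RNA, Filip1l and Camk1d were higher, and both were known for their level when the list was made. The other 17 were not listed, and only 16 of the 19 are in the annotation. A gene that is not listed did not meet the authors' criteria or was not analysed here, and is not shown to be unchanged.

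The identity of the cells could not be checked, since none of 12 FAP markers is among the listed genes. Of 15 markers of other cells, 12 were not listed and 3 were, against 0.772% of all genes tested. The markers were chosen with earlier results of these data known, so this count is read as no result about them. The 3 listed markers are hemoglobin genes of red blood cells, all higher in the Musclin library. Their levels summed to 51.2 in the Musclin library and 17.2 in the vehicle library. The part of red blood cells in the values of the 4 genes was not tested. Depth is unknown.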

How the data were processed

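RNA was measured in 1 Musclin and 1 vehicle library. The submitters' processing notes list GRCm38.p5, RSEM and edgeR with no version or role. Aligner, annotation release, scaling and strand: not given in the sources used here. Per the file headers, the authors' deposited table gives a fold, its log2 value, a p-value and adjusted p-value, and an expression signal (level) per library whose unit is not stated. Levels are printed 2 times with identical values for all 179 genes. The deposited values were copied, with no filter, and the authors' fold is Musclin over vehicle (headed PBS).

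The number of tests is the smallest that makes tests times p over adjusted p whole, within 0.001, for all 178 genes with p above 0. Reads were calculated from fold and p by an exact binomial relation. On simulated data it recovered 162 of 162 values within 2%. That checks the calculation only, and not the assumptions on spread and depth. The number of tests and the reads are descriptions, and no test was run here. Positions and transcripts are from GENCODE M21 (GRCm38), where 178 of 179 gene IDs had a transcript. Similar transcripts were found with BLAST+ 2.17.0 (blastn, e-value 1e-10). Python 3.11.15, pandas 2.3.3, numpy 2.4.6, scipy 1.17.1 and matplotlib 3.10.9 were used.

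The members and gene lists were chosen with earlier results of these data known. Genes named were the 4, Filip1l, overlapping genes, the listed genes nearest in level, their neighbours by level, and listed members of the gene lists. Agbl1, Ifit1, the structural RNAs under 400 nt and the genes of the closing section were added after their values were seen. A search of whole spans for ribosomal RNA was planned, but only transcripts were searched, as no genome sequence was used here. Alternatives were level ratios with pseudocounts of 0 to 5, other rankings, totals, overlap rules and identity limits.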

Additional observations from a re-analysis of the deposited data

How the results depend on the processing

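No replicate could be left out with 1 library per group. No paired analysis was possible because each group is 1 library. Counting limits would need the depth, which is unknown. The 16 log2 ratios of levels, with pseudocounts of 0, 0.1, 1 and 5, lay between 1.30 and 1.40 and within 1.5-fold of the deposited folds. Relative to the median log2 fold of the listed genes that rose (2.19), the log2 fold was -1.05 for Tmtc2, -0.98 for Camk1d, -0.96 for Gm26561 and -0.83 for D130009I18Rik. This reversal follows from the subtraction itself. The genes overlapping the 4 numbered 29 on any strand, 17 on the opposite strand and 2 by exons. Similar transcripts elsewhere numbered 0 for each of the 4 at 95% identity over 50% of the transcript, and 1022 for Gm26561 at 90% over 100 nt. Without Filip1l the 4 held 87.1% of the summed level in the Musclin library and 83.1% in the vehicle library. Under 4 settings chosen after seeing the data (other comparison genes, a level minimum of 5, a dispersion of 0.0001), the 16 implied lengths were 20.8 to 144 nt, all within 1.5-fold of those reported. The search of whole spans for ribosomal RNA was not run.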

Other observations

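Outside the 4 genes and Filip1l, 2 listed genes stood at the ends of the range of implied length, and both were chosen after their values were seen. Gm28047 had an implied length of 841% of its 1611 nt transcript, and its ratio of levels was 1.35 times its fold. Gm12940 had an implied length of 13.6% of its longest transcript of 1970 nt, and its ratio of levels was 3.75 times its fold.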
